A study of Mus musculus with 2 samples.

Results

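Methylated regions at the genes of the glutamate and GABA receptors were examined in the livers of a Pemt-/- mouse and a Pemt+/+ mouse. Members were the autosomal genes listed for either mouse whose symbol is that of an ionotropic glutamate receptor subunit (Gria, Grik, Grin, Grid), a metabotropic glutamate receptor (Grm), a GABA-A or GABA-A rho subunit (Gabr) or a GABA-B subunit (Gabbr). The rule gave 41 of the 14073 autosomal genes with a listed region. Beyond the need for a listed region in either mouse, it used symbols and no measured value. Of these genes 40 encode receptors, 16 of them ionotropic glutamate, 7 metabotropic glutamate, 15 GABA-A including rho, and 2 GABA-B. The remaining gene, Grid2ip, encodes a scaffold protein of synapses and was taken because its symbol begins alike. The X-linked members of these families were left out, and Grik4, Grm2 and Gabra6 were not analysed here.

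Glutamate is the main excitatory and GABA the main inhibitory transmitter of the brain. Ionotropic receptors of both are ion channels built from several subunits, while metabotropic glutamate and GABA-B receptors act through G proteins. The genes are expressed mainly in neurons. Many are long, so that they span large stretches of the genome, and most are little expressed in hepatocytes. Methylation of cytosine in CG dinucleotides at a promoter is commonly found with silencing, whereas methylation within the body of a gene is common in active and inactive genes alike.

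Each genotype was represented by 1 library, taken here as the liver of 1 mouse. The methods of the study name several mice of each genotype beside the enrichment step. Pemt encodes the enzyme that makes phosphatidylcholine by methylating phosphatidylethanolamine, and Pemt-/- mice lack it. Both mice received a high fat-high sucrose (HFHS) diet from 5 weeks of age, and the sample records date the livers to 25 weeks, whereas the methods of the study describe shorter feeding beside the enrichment step. Methylated DNA was captured with a kit and sequenced, and the authors deposited lists of enriched regions with the number of reads (tags) in each and the RefSeq transcripts within 10 kb. With 1 library per genotype, genotype, mouse and library cannot be told apart, no value has a replicate error, and no test was made. Whole liver holds several cell types, and a change in their mix cannot be told apart from a change of methylation within one of them. The regions carry no expression, so the tissue label could not be checked by marker genes. The longer list of each mouse held 97063 regions with 1582080 tags in Pemt-/- and 131279 regions with 2847831 tags in Pemt+/+. The total number of reads of each library is not in the lists, and every comparison of tags was therefore read against the same quantity over all autosomal genes.

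The receptor genes carried 277 of the 46362 Pemt-/- regions that lay within 10 kb of an autosomal gene, and 392 of the 63124 such Pemt+/+ regions. These regions held 4192 tags in Pemt-/- and 7689 tags in Pemt+/+. Fewer regions were listed in Pemt-/- at 34 of the 41 genes, as many at 5 and more at 2, Gabra2 and Grid2ip. Pemt-/- also had fewer regions as a whole, 97063 against 131279. The share of all autosomal genes with fewer regions in Pemt-/- was not computed. All 41 genes had a region in Pemt+/+ and 39 had one in Pemt-/-. Of the 14073 autosomal genes listed for either mouse, 13760 and 12786 had one. Gabra4 and Gabrd, an alpha and the delta subunit of the GABA-A receptor, were listed in Pemt+/+ only, each with 1 region of 10 tags inside the transcript. The ratio of region numbers in Pemt+/+ to those in Pemt-/- was 1.42 at the receptor genes and 1.36 over all autosomal genes. It was 1.39 over the 74 potassium channel genes, taken as all with a symbol beginning with Kcn. Their median length was 39.4 kb, against 183 kb at the receptor genes.

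**Figure D1:**
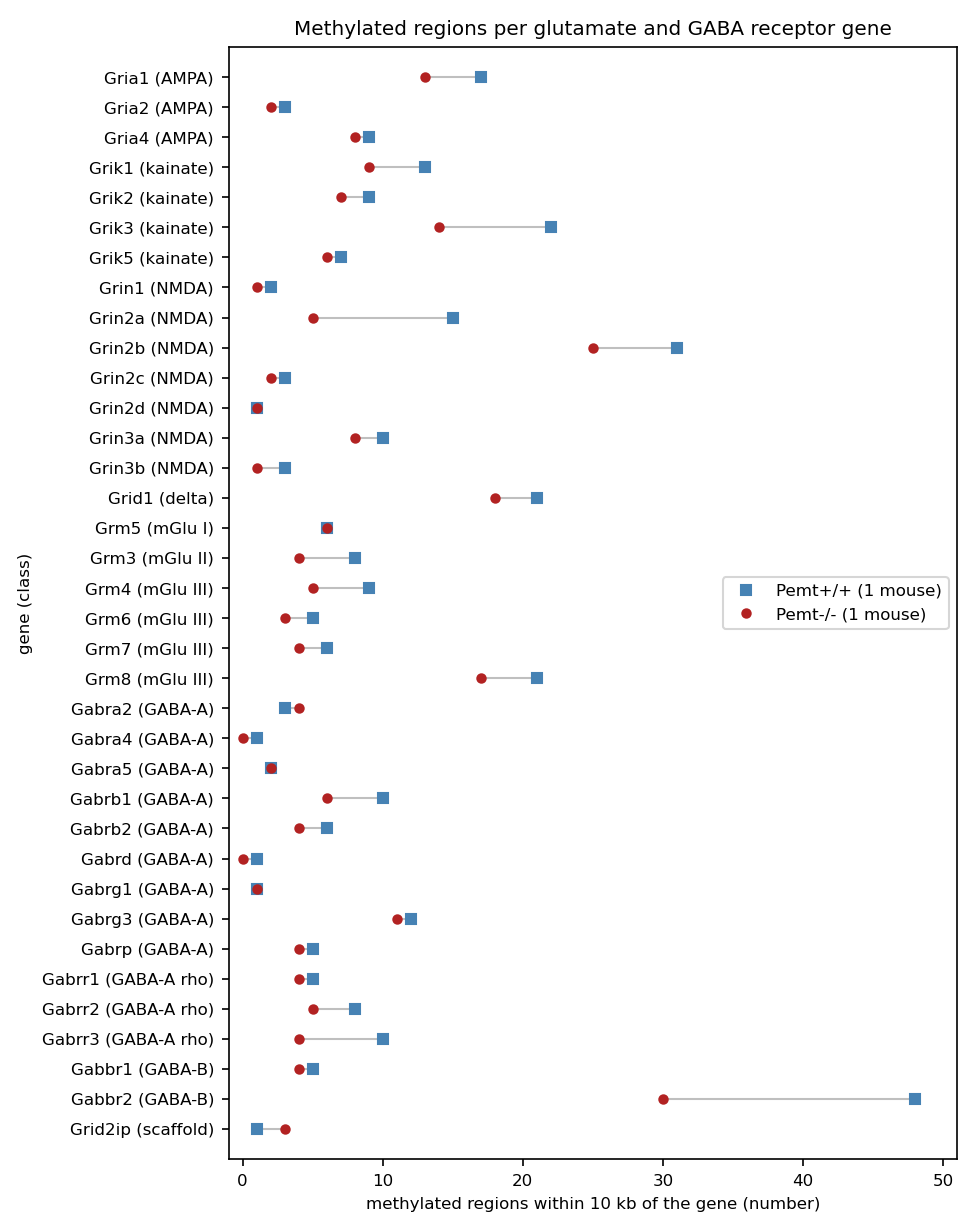
Number of methylated regions within 10 kb of 36 of the 41 genes (x axis) in the Pemt+/+ mouse (squares) and the Pemt-/- mouse (circles), with the genes ordered by receptor class. Gabbr2 and Grin2b have the most regions of the genes shown in both mice. In 30 genes the circle lies to the left of the square, and Pemt-/- also had fewer regions over all genes.

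Most regions at these genes lay within the transcribed part. Inside a transcript lay 253 (91.3%) in Pemt-/- and 354 (90.3%) in Pemt+/+, against 71.3% and 70.8% of all pairs of a region and an autosomal gene. The receptor genes were longer, with a median of 183 kb against 21.7 kb, and the 10 kb on each side weigh less in a long gene. The share over long genes alone was not computed. Upstream of the transcript lay 11 regions in Pemt-/- and 17 in Pemt+/+, and the same numbers lay downstream. The 3' end of the transcript was overlapped at Gria2 and Grin3a in both mice, and at Grin3b in Pemt+/+ only. Another gene within 10 kb was also assigned 11 regions in Pemt-/- and 22 in Pemt+/+, so these cannot be given to the receptor gene alone.

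Length set the receptor genes apart from most others. Their median length was 183 kb, against 21.7 kb over the 14000 autosomal genes with a known length, and 23 of the 41 were 100 kb or longer. The number of regions within 10 kb per 100 kb of gene had a median of 2.36 in Pemt-/- and 3.29 in Pemt+/+, against 9.83 and 14.7 over all autosomal genes. Since the 10 kb on each side weigh more in a short gene, long genes were compared with long genes. The 23 receptor genes of 100 kb or longer had medians of 1.88 in Pemt-/- and 2.44 in Pemt+/+, and the 1867 autosomal genes of that length had 4.73 and 6.47. Counting only regions inside the transcript, these medians were 1.86 and 2.38 at the receptor genes, against 4.22 and 5.64 at all long genes. The 18 shorter receptor genes had medians of 8.03 and 10.2, and the 12133 autosomal genes under 100 kb had 11.4 and 16.9. With regions inside the transcript only, the order turned among the shorter genes, with 5.52 and 7.64 at the receptor genes against 4.18 and 6.89. The shorter receptor genes were also longer than the others under 100 kb, with a median of 36.3 kb against 17.2 kb. By both measures, regions were sparser at the long receptor genes than at the median long gene in each mouse, a description without a test. The long receptor genes were also longer than the long autosomal genes, with a median of 395 kb against 172 kb. Length was therefore not matched in this comparison. The regions at the receptor genes had a median length of 401 bp in Pemt-/- and 426 bp in Pemt+/+, close to the 420 bp and 423 bp over all autosomal genes.

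**Figure D2:**
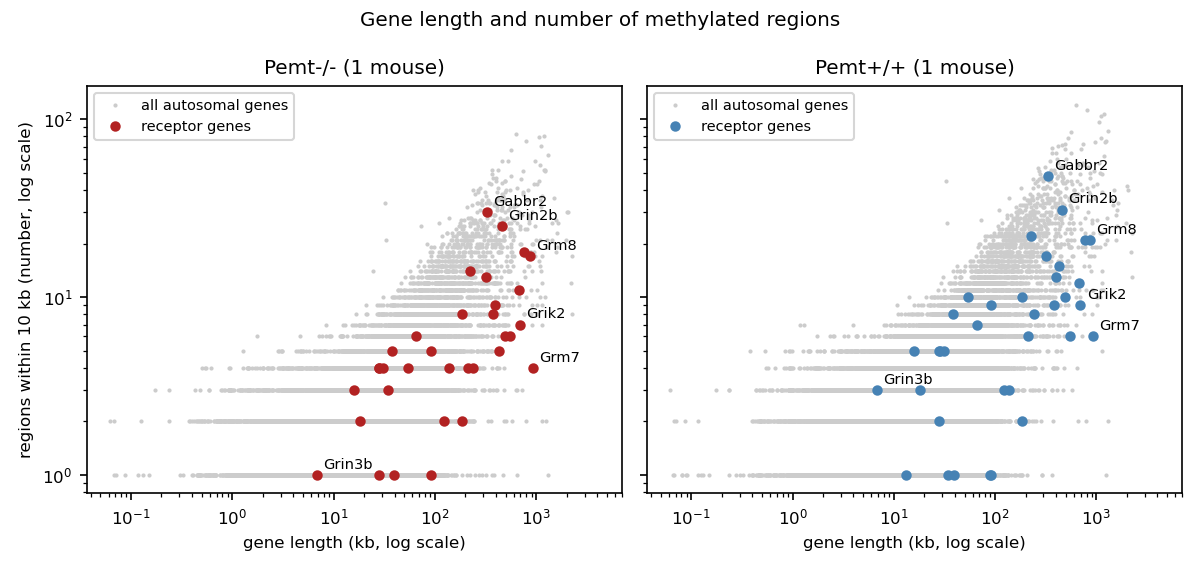
Gene length in kb (x axis, log scale) against the number of regions within 10 kb (y axis, log scale) in the Pemt-/- mouse (left) and the Pemt+/+ mouse (right), for all autosomal genes (grey) and 36 of the members, Grid2ip included (coloured). Genes without a region in a mouse, Gabra4 and Gabrd in Pemt-/-, cannot be shown on the log scale. Most long receptor genes lie in the lower part of the grey cloud, with Grm7 at 4 and 6 regions, while Gabbr2 lies in its upper part.

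The densest receptor genes were short ones. Grm6, which serves the ON bipolar cells of the retina and spans 15.8 kb, had 18.9 regions per 100 kb in Pemt-/- and 31.6 in Pemt+/+. Grin3b, an NMDA receptor subunit that binds glycine, spans 6.79 kb and had 14.7 and 44.2, from 1 and 3 regions that were also assigned to neighbouring genes. Gabrp, the pi subunit of the GABA-A receptor, had 14.2 and 17.7, and the rho subunit gene Gabrr2 had 13.1 and 21.0. At the other end, Grm7, a presynaptic receptor, had 0.43 regions per 100 kb in Pemt-/- and 0.65 in Pemt+/+. Of the long autosomal genes, 2.0% were sparser than Grm7 in Pemt-/- and 1.2% in Pemt+/+. Grm5, Gabra5 and Gabrg1 each had 1.09 regions per 100 kb in both mice. Of the 23 long receptor genes, 3 were denser than the median long autosomal gene in both mice. Gabbr2 had 9.11 regions per 100 kb in Pemt-/- and 14.6 in Pemt+/+, denser than 84.1% and 91.7% of long autosomal genes. Grik3 had 6.25 and 9.83, denser than 65.3% and 73.7%, and Grin2b had 5.43 and 6.73, denser than 57.2% and 52.5%.

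Among the ionotropic glutamate receptors, the AMPA receptor genes Gria1, Gria2 and Gria4 encode the channels of fast excitatory transmission. Gria1 had 13 regions with 187 tags in Pemt-/- and 17 regions with 293 tags in Pemt+/+. Gria4 had 8 regions with 104 tags and 9 with 150. Gria2, whose subunit limits the calcium flow of the channel, had only 2 regions with 36 tags and 3 with 69 along 123 kb. Gria1 also held 1 of the 5 strongest Pemt-/- regions of all receptor genes, at chr11:56830805-56831322 inside the transcript, with 45 tags against 47 in its Pemt+/+ counterpart.

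The kainate receptor genes were Grik1, Grik2, Grik3 and Grik5. Grik3 was the densest of the long ones, with 14 regions and 191 tags in Pemt-/- and 22 regions and 410 tags in Pemt+/+. Of its Pemt+/+ regions, 12 had no counterpart in Pemt-/-, and 4 of its Pemt-/- regions had none in Pemt+/+. Over all autosomal genes, 39.6% of Pemt+/+ and 17.7% of Pemt-/- regions had none. Grik1 had 9 regions with 129 tags in Pemt-/- and 13 with 230 in Pemt+/+, and 66 of the latter tags lay in a single region at chr16:88283966-88284409, which held 35 tags in Pemt-/-. Grik2 had 7 regions with 121 tags and 9 with 231 along 696 kb. Grik5, which forms channels only together with other kainate subunits, had 6 regions with 80 tags and 7 with 109, of which 4 and 5 were listed in that mouse only.

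NMDA receptors combine the obligatory subunit of Grin1 with subunits from Grin2a to Grin2d, which bind glutamate, or from Grin3a and Grin3b. Grin2b, the subunit most prominent in the developing forebrain, had the second highest number of regions of all receptor genes in Pemt-/-, 25 with 463 tags, and 31 with 746 tags in Pemt+/+. It also held the strongest region of the family in both mice, inside the transcript at chr6:135993847-135994608 in Pemt+/+ with 125 tags and at chr6:135993699-135994608 in Pemt-/- with 64. Grin2a, its counterpart in the mature brain, had 5 regions with 105 tags in Pemt-/- and 15 regions with 296 tags in Pemt+/+. Grin3a had 8 regions with 123 tags and 10 with 197. The remaining NMDA receptor genes were short and had few regions. Grin1 had 1 and 2, Grin2c 2 and 3, Grin2d 1 and 1, and Grin3b 1 and 3. At Grin1 and Grin2d none of the regions of one mouse overlapped a region of the other. These regions held at most 13 tags each. Of single regions near autosomal genes, 17.7% in Pemt-/- and 39.6% in Pemt+/+ overlapped none of the other mouse. The share of genes without any shared region was not computed.

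The delta receptor gene Grid1 encodes a subunit that binds cerebellins and organises synapses. Grid1 had 18 regions with 204 tags and 21 with 396. The region with the most tags among those of a receptor gene found in Pemt+/+ only lay inside Grid1, at chr14:36050605-36051221, with 29 tags.

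Metabotropic receptors of group I couple to calcium release. Of these, Grm5 had 6 regions in each mouse, with 80 and 113 tags. The receptors of groups II and III lower cyclic AMP. Grm3 of group II had 4 regions with 56 tags and 8 with 128. In group III, Grm8 had the most, 17 regions with 253 tags and 21 with 409. Grm4 had 5 with 74 tags and 9 with 172, Grm6 had 3 with 46 and 5 with 90, and Grm7 had 4 with 37 and 6 with 80.

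GABA-A receptor subunits form chloride channels, and most of their genes lie in clusters. On chromosome 5 the cluster of Gabrg1, Gabra2, Gabra4 and Gabrb1 held 11 regions with 161 tags in Pemt-/- and 15 with 288 in Pemt+/+. Pemt-/- contributed 35.9% of the tags of this cluster, against 36.1% at the median autosomal gene. Numbers of regions were uneven among the subunits, whose genes also differed in length. Gabrg3 on chromosome 7 held 11 and 12 regions with 195 and 326 tags, while Gabra2 held 4 and 3, Gabra4 0 and 1, and Gabra5 2 and 2. Gabrg3 spans 671 kb and Gabra2 137 kb. Per 100 kb, Gabrg3 had 1.64 and 1.79 regions, fewer than the 2.91 and 2.18 of Gabra2. Gabra4 had 0 and 1.13 per 100 kb, and Gabra5 had 1.09 in both mice. Gabrb2, a beta subunit of the most common brain receptors, had only 4 and 6 regions but 142 and 219 tags. A pair of neighbouring regions inside Gabrb2 was among the 5 strongest of both mice, at chr11:42252705-42253217 with 64 tags in Pemt+/+ and 56 in Pemt-/-, and at chr11:42255176-42255793 with 65 and 45.

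The rho subunits form GABA-gated channels best known from the retina. Gabrr1 had 4 regions with 65 tags in Pemt-/- and 5 with 104 in Pemt+/+, Gabrr2 had 5 with 68 and 8 with 160, and Gabrr3 had 4 with 66 and 10 with 209. All 13 Pemt-/- regions of these genes overlapped Pemt+/+ regions, while 10 of the 23 Pemt+/+ regions were listed in that mouse only. Over all autosomal genes, 17.7% of Pemt-/- and 39.6% of Pemt+/+ regions were listed in that mouse only. Of the GABA-B receptor genes, Gabbr1 encodes the subunit that binds GABA and Gabbr2 the subunit that couples to the G protein. Gabbr1 had 4 regions with 49 tags and 5 with 72. Gabbr2 had more regions than any other member, 30 with 482 tags in Pemt-/- and 48 with 903 tags in Pemt+/+. Its strongest Pemt-/- region, at chr4:46847857-46848844, held 40 tags against 63 in Pemt+/+, and 25 of its 48 Pemt+/+ regions were listed in that mouse only.

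Most Pemt-/- regions of the receptor genes had a counterpart in Pemt+/+, and somewhat over 50% of the Pemt+/+ regions had one in Pemt-/-. A Pemt+/+ region was overlapped by at least 1 bp by 79.1% of the Pemt-/- regions of these genes (95% Wilson confidence interval 73.9 to 83.4%), against 82.3% of all Pemt-/- regions near autosomal genes. In the other direction 55.9% of the Pemt+/+ regions were shared (50.9 to 60.7%), against 60.4%. Both intervals hold the value over all regions. All these intervals treat regions or tags as independent draws and cover counting error only. Found in one mouse only were 58 Pemt-/- regions (20.9%, against 17.7% of all) and 173 Pemt+/+ regions (44.1%, against 39.6% of all). Regions found in one mouse only were weak. They held a median of 9 tags in Pemt-/- and 12 in Pemt+/+, with at most 17 and 29, while shared regions held medians of 14 and 21. Near all autosomal genes the medians were alike, 10 and 13 tags in regions of one mouse only and 14 and 22 in shared regions. The smallest listed regions held 8 and 9 tags. A region found in one mouse only occurred at 21 of the 41 genes in Pemt-/- (51.2%, where 41% of all autosomal genes had one) and at 38 in Pemt+/+ (92.7%, where 74.3% had one). Of the autosomal genes of 100 kb or longer, 74.7% and 95.3% had such a region, and of the 23 long receptor genes 60.9% and 95.7%. Both kinds of region occurred at 20 of the 41 genes. The share of all autosomal genes with both kinds was not computed, so this count has no background beside it.

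To compare the strength of the signal, the tags of all regions of a gene were summed and the share from Pemt-/- was taken. Of the 41 genes, 39 were listed for each of the mice and held 20 tags or more in all. Their median share was 34.8%, against 36.1% over the 12354 autosomal genes that met the same limits, for which the middle 50% lay between 30.7 and 41.2%. The potassium channel genes had a median of 35.5%. The 95% interval held the 36.1% of the median gene at 33 of the 39 receptor genes, lay below it at 4 (Grin2a, Gabrr3, Grik3 and Gabrr2) and above it at 2 (Gabra2 and Grid2ip). Over all autosomal genes tested, 14.9% of intervals lay below and 13.9% above, and over those of 100 kb or longer 17.4% and 15.8%. By class, the share of all tags ran from 29.6% at the rho genes and 30.4% at Grm3, the only gene of its group, to 39.0% at the AMPA receptor genes. Between these lay the GABA-A receptor genes without rho, the largest class with 12 genes, at 36.8%. The NMDA receptor genes had 35.4%, the kainate receptor genes 34.7%, and the group III metabotropic and the GABA-B receptor genes 35.3% each. Every gene except Grid2ip had fewer tags in Pemt-/- than in Pemt+/+, as did the median autosomal gene, whose Pemt-/- to Pemt+/+ ratio was 0.564.

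**Figure D3:**
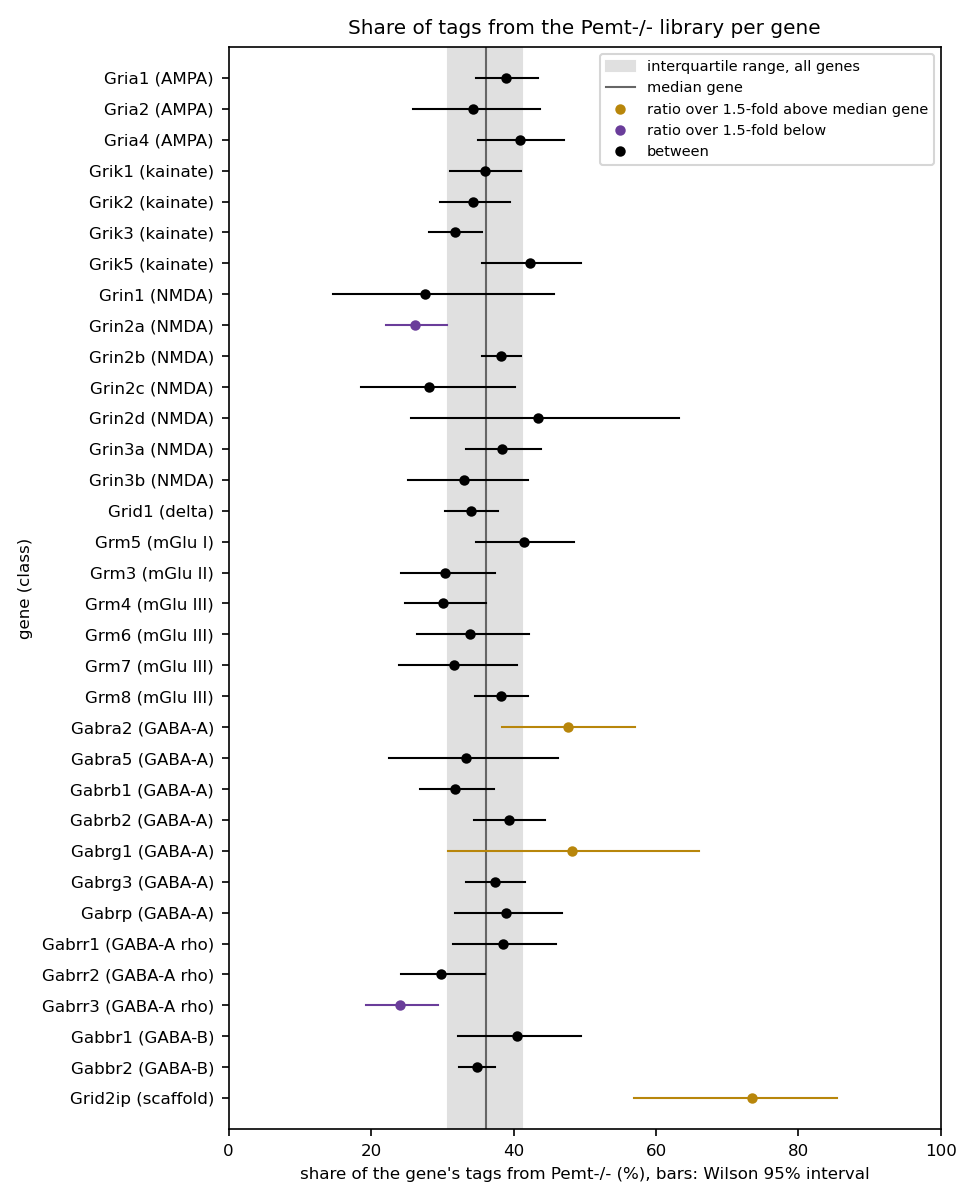
Share of each gene's tags that came from the Pemt-/- library (x axis, percent) with its 95% Wilson interval, for 34 of the 39 genes listed for each mouse with 20 tags or more, ordered by class. The line and the grey band mark the median, 36.1%, and the middle 50% of all autosomal genes, and the coloured points are Gabra2, Gabrg1 and Grid2ip above and Grin2a and Gabrr3 below.

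A gene was called when its tag ratio lay more than 1.5-fold above or below that of the median gene. Of the 39 genes 3 lay above (7.69%, where 12.6% of all autosomal genes tested did) and 2 below (5.13%, against 15.1%). Among autosomal genes of 100 kb or longer, 4.82% lay above and 5.96% below. Below the limit were Grin2a, with 105 tags in Pemt-/- and 296 in Pemt+/+ (Pemt-/- share 26.2%, interval 22.1 to 30.7%), and Gabrr3, with 66 and 209 tags (24.0%, 19.3 to 29.4%). In both genes the shared regions lay near the median gene, and Pemt+/+ had further regions. Grin2a had 5 regions in Pemt-/-, each with a single Pemt+/+ counterpart, and these pairs held 105 and 153 tags, 1.02 times the ratio of the median autosomal gene over such pairs. Its other 10 Pemt+/+ regions, between 9 and 20 tags each, overlapped no Pemt-/- region and held 143 tags together. Along the gene the shared regions held 17 and 32, 24 and 37, 9 and 15, 16 and 14, and 39 and 55 tags in Pemt-/- and Pemt+/+. Gabrr3 had 4 such pairs with 66 and 103 tags, 0.95 times the median, and 6 Pemt+/+ only regions of 13 to 24 tags. These lay between chr16:59414938-59415477 and chr16:59447326-59448083, all inside the transcript. The paired values were added after the data had been seen.

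Above the limit were Gabra2, Gabrg1 and Grid2ip. Gabra2 had 51 tags in Pemt-/- and 56 in Pemt+/+ (47.7%, 38.4 to 57.0%). Its 3 paired regions held 38 and 56 tags, close to the ratio of the median gene over such pairs, and the rest came from a Pemt-/- only region of 13 tags, 899 bp beyond the 3' end of the transcript at chr5:71351169-71351396. Gabrg1, its neighbour in the cluster, had a single region in each mouse with 13 and 14 tags (48.1%, 30.7 to 66.0%), an interval that holds the median gene. Grid2ip had 3 regions with 25 tags in Pemt-/- and 1 region with 9 tags in Pemt+/+ (73.5%, 56.9 to 85.4%), and none of them overlapped a region of the other mouse. With regions of 8 and 9 tags, at the smallest size listed, this gene rests on the weakest signal the lists hold. Over single pairs only, Grik5 alone of 35 genes was called, with 42 and 41 tags or 1.52 times the median ratio, while 6.01% of the 11690 autosomal genes with such pairs lay above the limit and 5.38% below.

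The receptor genes had 216 pairs of regions with a single partner in the other mouse. Pemt-/- tags divided by Pemt+/+ tags had a median of 0.691 over these pairs, and the middle 50% lay between 0.552 and 0.852. Over all 37410 such pairs near autosomal genes the median was 0.688, with 0.550 to 0.857. More tags in Pemt-/- were found in 24 of the 216 pairs (11.1%), against 10.8% of all pairs. Among the lowest ratios were those at Gabrg3 (chr7:64638641-64638989 in Pemt-/-, 10 against 37 tags, 0.270) and Grik3 (chr4:125362482-125362841, 8 against 29, 0.276). The highest were at Grin3a (chr4:49759491-49760233, 29 against 14, 2.07), Grik1 (chr16:87904225-87904897, 21 against 13, 1.62) and Gria4 (chr9:4513080-4513472, 14 against 9, 1.56). All 3 of the latter lay inside the transcript, and each belonged to a gene whose summed share lay within the limits. Gabbr2 had the most pairs with more tags in Pemt-/-, 4 of 22, but it also had the most pairs of any member.

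**Figure D4:**
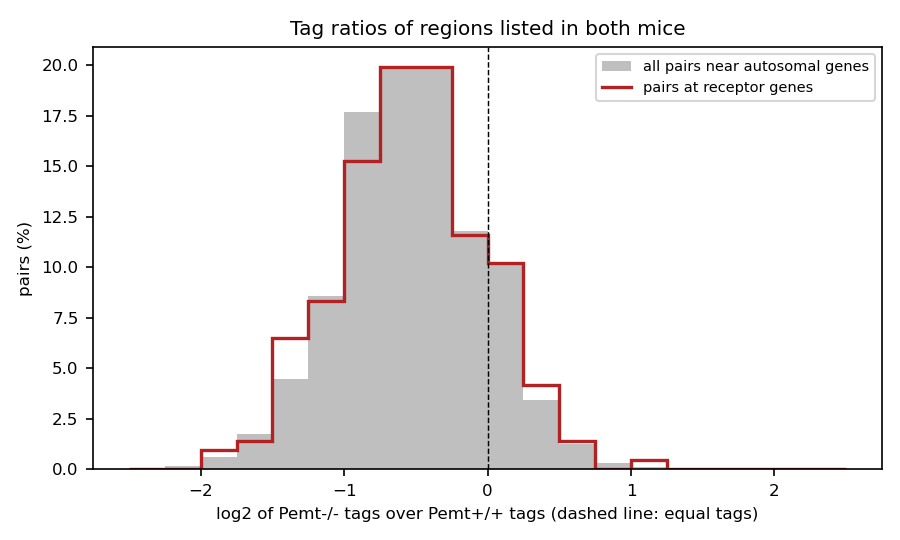
Distribution of the log2 ratio of Pemt-/- to Pemt+/+ tags (x axis) over regions that overlap one to one, as percent of pairs (y axis), for the 216 pairs at the receptor genes (line) and all 37410 pairs near autosomal genes (filled). Both distributions lie mostly to the left of the dashed line of equal tags, and they cover each other closely.

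The authors also deposited a shorter list for each mouse, which the sample records do not explain. The shorter Pemt-/- list named 5 of the 41 genes (12.2%, where 8.32% of all autosomal genes were named), and the shorter Pemt+/+ list named 16 (39.0%, where 19% were). Among autosomal genes of 100 kb or longer, 22.4% and 43.7% were named, and of the 23 long receptor genes 21.7% and 60.9%. The Pemt-/- genes included Gabra2, Gabrg3, Grid1 and Grm5, and the list held 7 regions of 8 to 13 tags, and the deposited false discovery rate (FDR) was 100% for each. The Pemt+/+ list held 24 regions of 9 to 62 tags, with an FDR between 30.0 and 35.7%. Its genes included Gabbr2 with 4 regions, Grid1, Grik2, Grik3, Grin2a and Grm8 with 2 each, and Gabra5, Gabrb1, Gabrg3, Gabrr2, Gria1, Grin2b, Grin3a and Grm4 with 1 each. Gabrg3 and Grid1 were among the 3 genes named in both lists, with different regions. All 31 of these regions were also in the longer list of the same mouse. Only 4 overlapped a longer-list region of the other mouse, all of them Pemt+/+ regions. They included regions at Grik2, with 62 tags against 25 in Pemt-/-, at Grik3 with 48 against 15, and at Gabrg3 with 37 against 10.

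No region overlapped the 5' end of a receptor gene transcript in either mouse. Over all autosomal genes such an overlap was rare, at 1.6% of genes in Pemt-/- and 2.37% in Pemt+/+, so that 0 of 41 is near the background. Upstream regions give their distance to the transcript, and from this the start was worked out for 15 of the genes, a step added after the data had been seen. The nearest region to these starts lay at a median distance of 6161 bp in Pemt-/- and 4583 bp in Pemt+/+. Over 8593 transcripts treated alike, which were likewise limited to those with an upstream region, the medians were 4744 and 3567 bp. Within 2 kb of the start lay a region at 3 of the 15 genes in each mouse (interval of the share 7.05 to 45.2%), against 22.0% and 29.2% of all these transcripts. In Pemt-/- they were Gabra5, with a region of 9 tags listed in that mouse only 508 bp upstream, and Gabrr1 and Gabrr3, with regions 712 and 1975 bp downstream. In Pemt+/+ they were Gabrr1 and Gabrr3 again, at 756 and 1756 bp, and Gabrb2, at 1070 bp upstream. The nearest Pemt+/+ region to the start of Gabra5 lay 20602 bp away, and the nearest Pemt-/- region to that of Gabrb2 lay 19597 bp away.

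The positions of regions were followed along 4 genes with many of them, without a comparison to other genes. Within Gabbr2, 329 kb long, the first region lay 16.0 kb from the start in Pemt-/- and 16.1 kb in Pemt+/+, and within Grin2b, 460 kb long, 12.7 kb in both mice. Within Grid1, 763 kb long, it lay at 36.3 and 36.4 kb, and the last region at 694 kb in both mice left a longer stretch free at the other end. In Grm8, 860 kb long, the first Pemt+/+ region lay at 8.73 kb and the first Pemt-/- region at 44.9 kb. The strongest region of both mice in Grin2b lay at 129 kb and the last at 441 kb.

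**Figure D5:**
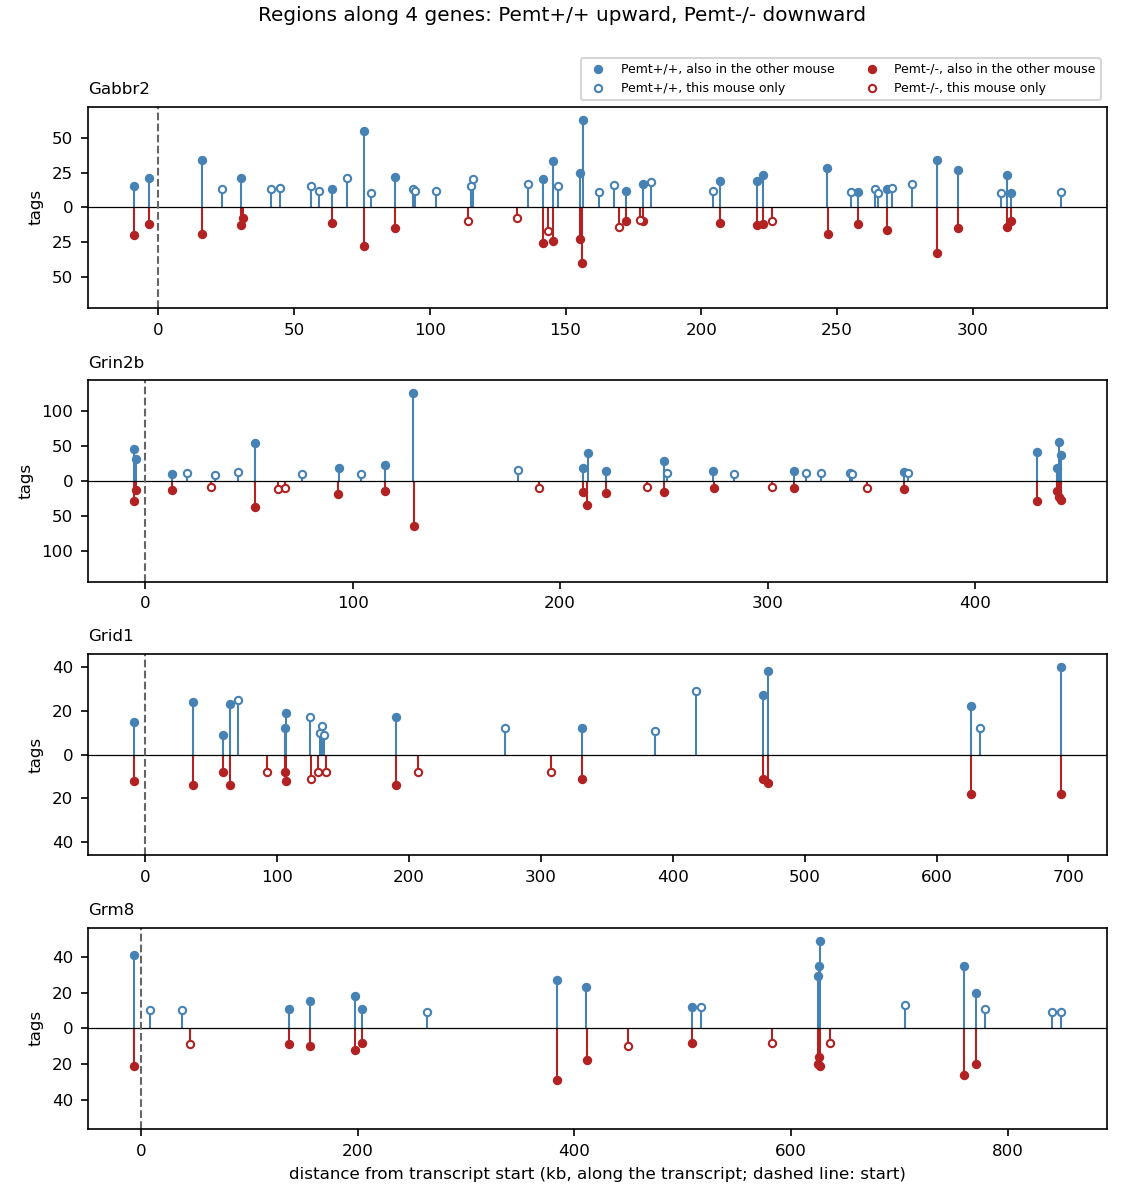
Regions along Gabbr2, Grin2b, Grid1 and Grm8 by distance from the transcript start in kb (x axis), with the number of tags upward for the Pemt+/+ mouse and downward for the Pemt-/- mouse (y axis). Filled points are regions that overlap one of the other mouse and open points are regions found in one mouse only, which hold at most 29 tags, and no region lies on the dashed line of the start.

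The DNA around the starts differed widely between members. RefSeq promoter sequences of the assembly GRCm38.p6 were matched by gene to 27 of the 41 genes, 34 promoters in all. That assembly differs from mm9, the build in which regions are given, so positions cannot be compared and the transcript starts may not be the same. From 250 bases before to 50 after the start, the members held a median of 12 CG dinucleotides, between 2 and 50, against 7 over all 32851 promoters. At least 20 were held by 26.5% of the members' promoters and by 26.5% of all. The 250 bases upstream are shown for a pair of genes with many CG, Grik3 and Gabbr2, whose bodies held many regions, and for a pair with a region within 2 kb of a start, Gabra5 and Gabrr3. Capitals mark CG dinucleotides, the kind of site that can be methylated. Whether the sites shown were methylated in these livers was not measured. Each sequence runs 5' to 3' on the strand of the gene.
Grik3 (chr4:125490446-125490695, plus strand): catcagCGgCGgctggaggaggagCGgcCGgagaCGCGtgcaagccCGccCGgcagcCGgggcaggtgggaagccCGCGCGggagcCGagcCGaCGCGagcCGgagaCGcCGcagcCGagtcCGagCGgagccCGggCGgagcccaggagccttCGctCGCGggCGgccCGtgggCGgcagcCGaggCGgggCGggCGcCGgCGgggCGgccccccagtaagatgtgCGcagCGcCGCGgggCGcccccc
Gabbr2 (chr4:46991715-46991964, minus strand): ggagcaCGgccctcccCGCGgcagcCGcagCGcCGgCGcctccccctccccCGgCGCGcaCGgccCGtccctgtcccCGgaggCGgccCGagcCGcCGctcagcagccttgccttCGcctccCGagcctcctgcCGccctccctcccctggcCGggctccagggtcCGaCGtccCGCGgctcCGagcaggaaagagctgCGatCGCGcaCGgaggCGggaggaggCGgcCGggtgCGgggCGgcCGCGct
Gabra5 (chr7:57510060-57510309, minus strand): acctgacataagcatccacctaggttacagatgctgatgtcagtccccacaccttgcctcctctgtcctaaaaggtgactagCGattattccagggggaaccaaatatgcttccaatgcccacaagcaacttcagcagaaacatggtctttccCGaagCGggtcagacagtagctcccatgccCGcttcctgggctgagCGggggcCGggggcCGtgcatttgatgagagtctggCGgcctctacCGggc
Gabrr3 (chr16:59407132-59407381, plus strand): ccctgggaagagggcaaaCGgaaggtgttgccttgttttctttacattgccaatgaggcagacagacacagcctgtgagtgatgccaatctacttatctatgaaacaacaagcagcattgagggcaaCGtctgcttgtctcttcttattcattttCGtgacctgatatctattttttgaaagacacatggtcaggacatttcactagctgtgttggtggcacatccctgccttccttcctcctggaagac
Grik3 held 42 CG in these 250 bases and Gabbr2 held 37, at a GC content of 82.0% and 80.8%. Gabra5 held 9 at 56.4% and Gabrr3 held 3 at 46.0%. In the 300 bases, the left part of the RE1 element, CAGCACC, to which the neuronal repressor REST binds, was searched for on both strands and found in none of the 34 promoters, against 7.14% of all promoters. The right part, GGACAGC, was found in that of Gria2 only, or 2.94%, against 6.56% of all. These are matches of letters in a short window.

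Other genes of the same transmitters were measured by lists of known function. Their calls are to be read against the 12.6% of all autosomal genes above and the 15.1% below the limit. Of 13 transporters 11 had a region, and of the 10 that could be tested none lay above the 1.5-fold limit and 2 below. These were Slc6a12 and Slc6a13, both GABA transporters known from liver. Slc6a12 had 13 tags in 1 Pemt-/- region and 39 tags in 2 Pemt+/+ regions. Slc6a13 had 22 tags in 2 Pemt-/- regions and 59 tags in 3 Pemt+/+ regions. Of 8 enzymes 6 had a region, none lay above, and Glul, glutamine synthetase of the hepatocytes around the central vein, lay below. Glul had 27 tags in 2 Pemt-/- regions and 82 tags in 4 Pemt+/+ regions. Of 26 auxiliary and scaffold genes 16 had a region and were tested, none lay above, and 5 lay below (31.2%), the auxiliary subunit genes Cacng5, Cacng7 and Cacng8 and the scaffold genes Dlg4 and Pick1. The median Pemt-/- share was 31.6% for the transporters, 33.4% for the enzymes and 33.8% for the auxiliary and scaffold genes, against 34.8% for the receptor genes. A region lay across a 5' end at 2 of the 16 auxiliary and scaffold genes in Pemt-/-, Homer1 and Grip1, and at these and Shank2 in Pemt+/+, where 1.6% and 2.37% of all autosomal genes had one. The difference from 0 of 41 receptor genes was not tested. Grip1, a scaffold of AMPA receptors, had 83 regions in Pemt-/- and 121 in Pemt+/+, more than any receptor gene. Of 10 genes typical of hepatocytes 7 had a region, 1 lay above (Fgb) and 1 below (Apoa2) of the 6 tested, and none of the 7 had a region across a 5' end in either mouse.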

How the data were processed

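Liver DNA of 1 Pemt-/- and 1 Pemt+/+ library was analysed from the authors' region lists. The submitters' processing notes name CASAVA version 1.8.2, Bowtie and the build mm9. The region caller, its settings and control, and the treatment of duplicate reads, which all change tag numbers, are not given in the sources used here. The sample records mention bisulphite conversion, the methods of the study do not. Tags are deposited as raw counts of reads. The deposited fold enrichment is a ratio over background, the deposited score is 10 times the −log10 p-value, and the deposited FDR is a percent. Depth is known only as tags in listed regions.

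Each region was used once per gene. Overlap was computed with bedtools version 2.31.1 (at least 1 bp), other values with Python version 3.11.15, scipy version 1.17.1, numpy version 2.4.6 and pandas version 2.3.3, and plots with matplotlib version 3.10.9. Gene lengths came from RefSeq (GRCm38.p6). Calls needed regions in both mice, at least 20 tags and a ratio over 1.5-fold from the median gene. Named genes were those with most or fewest regions, strongest regions, extreme pairs, calls, a shorter-list entry or no region. The members, lists and rules were chosen with earlier results of these data known. Alternatives were a stricter score, overlap, list size, relation, tag minimum and fold. Scripts were tested on simulated data. Values of some members are not reported here.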

Additional observations from a re-analysis of the deposited data

How the results depend on the processing

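No paired analysis was possible because there is only 1 library of each genotype, and no library could be left out. Of 66 values recomputed under alternatives, 14 moved and 52 stayed within a tolerance, which was 1.5 times for counts and densities, the 95% interval for the share of regions in both mice, and the 95% interval of the members' pooled tag share for the median share. With the upper 50% of each list by score, the regions of the receptor genes fell to 134 in Pemt-/- and 173 in Pemt+/+, the median density to 1.07 and 1.49 per 100 kb, the median Pemt-/- share was 37.1% (36.6% over all autosomal genes) and 5 of 31 genes tested lay below the limit, where 18.8% of all autosomal genes did. With lists of equal size, the regions shared were 70.0% in Pemt-/- and 67.2% in Pemt+/+, and the median share was 38.5% (40.0% over all genes). With regions inside or overlapping a transcript only, the median share was 36.9% (36.7% over all genes), and over one-to-one pairs 40.4% (40.3%). The median share of the receptor genes, below that of all genes as reported, lay above it in the last 2 of these and under the stricter score. With a 2-fold limit 1 gene, Grid2ip, lay above and 0 below (4.35% and 6.18% of all genes), and with an FDR of at most 50% the shorter Pemt-/- list named 0 receptor genes. Within the tolerance, an overlap of 50% of both regions gave shares in both mice of 74.0% and 52.3% and 24 and 39 genes with a region of one mouse only, and lists of equal size gave 287 Pemt+/+ regions at a density of 2.54 and 27 genes with a Pemt-/- only region. Leaving out the minimum of tags gave the same median share and calls. The numbers of tags are small, and regions of 8 to 10 tags lie at the limit of what the lists hold.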
